A study of Mus musculus with 9 samples.

Results

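The potassium channel genes of the mouse cerebellum were examined as 1 group, made of every protein-coding gene whose symbol starts with Kcn. This rule took 92 of the 37816 genes in the count table. It covers the subunits that line the pore and the auxiliary subunits that bind them. Of the 92 members, 78 passed the filter on low counts and entered the tests, in which 19353 genes were tested in all. The other 14 members were too weakly detected, and 5 antisense RNAs named after Kcn genes were not counted as members.

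The study sequenced cerebellar RNA of mice made transgenic with human ATXN3, the gene of Machado-Joseph disease, on a yeast artificial chromosome (YAC) and with either 15 or 84 CAG repeats. The 15Q mice carry the short repeat and served as controls. The 84Q mice carry the expanded repeat. The 84Q+IGF1 mice carry the expanded repeat and received insulin-like growth factor 1 at 50 mg/kg. The mice had a C57BL/6 background, injections ran weekly from 9 months of age, and tissue was taken at 18 months. The labels call the 15Q and 84Q mice untreated, whereas the study's methods give them saline injections. All groups carry a human transgene on top of the mouse gene, so the series holds no mouse without a transgene. Each group had 3 libraries, described in the study as data of single mice, and the p-values measure the spread between these libraries. The mouse Atxn3 gene (25.1 to 30.1 CPM, that is, counts scaled to the size of the library) does not check the labels, because the transgene is human.

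Potassium channels let potassium ions leave or enter the cell and so set the resting potential and shape the action potential. Voltage-gated (Kv) channels open on depolarization and repolarize the membrane. Calcium-activated channels couple calcium entry to afterhyperpolarization, inward rectifiers (Kir) hold the membrane near the potassium potential, and 2-pore-domain (K2P) channels carry leak current. In the cerebellum, Kv3 channels support the fast firing of Purkinje cells, Kir4.1 takes up potassium in Bergmann glia, and mutations of KCND3 and KCNA1 cause inherited ataxias in people.

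Total counts ran from 17482654 to 58269196 per library, and Kcn genes took 0.701% to 0.767% of them. Markers of the expected cell types were present throughout, and 0 markers of Purkinje cells, granule cells, interneurons, astrocytes, oligodendrocytes, microglia or vessels passed the call rule in any comparison. The libraries 15Q replicates 1 and 3 and 84Q replicate 2 stood apart by their choroid plexus markers, the tissue that secretes cerebrospinal fluid. The summed level of 12 such markers was 1182, 1150 and 2102 CPM there, and 122 to 215 CPM in the other 6 libraries. All 15Q libraries also held low levels of intestine markers (18.2 to 28.9 CPM summed, against 4.31 to 6.10 CPM in the 84Q and 84Q+IGF1 libraries). The female-specific Xist RNA ranged from 0.285 to 948 CPM, so both sexes were present, unevenly across the groups.

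What the pore-forming members share is the short selectivity filter that lets potassium pass and holds back sodium. The coding letters of this filter are shown for 7 members, because they show how 1 element unites genes of very different level. Kcnk5, Kcnk1 and Kcnma1 passed a threshold in at least 1 comparison, and Kcnc1, Kcna1, Kcnj10 and Kcnj13 did not and are shown as members of other families or of choroid plexus. Each sequence holds 27 bases of the coding strand, read from the GENCODE M21 transcripts of GRCm38. Capitals mark the 15 bases of the filter pattern, which is an ACN codon, any codon, a GGN codon, a TAC or TAT codon and a GGN codon.
Kcnc1: atgacgACACTGGGCTATGGAgacatg
Kcna1: atgaccACTGTGGGATACGGTgacatg
Kcnma1: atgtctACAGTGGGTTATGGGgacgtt
Kcnj10: cagaccACCATCGGCTATGGCttccgc
Kcnj13: caacttACAATTGGTTATGGTaccatg
Kcnk1: ctctccACCACAGGCTATGGCcacacg
Kcnk5: atcaccACCATCGGTTATGGCaatgtg
The windows lie in coding exons at chr7:46427967-46427993 (Kcnc1, plus strand), chr6:126642222-126642248 (Kcna1, minus), chr14:23528407-23528433 (Kcnma1, minus), chr1:172369296-172369322 (Kcnj10, plus) and chr1:87389015-87389041 (Kcnj13, minus). Those of Kcnk1 (chromosome 8, plus strand) and Kcnk5 (chromosome 14, minus strand) are split by an intron. The windows of Kcna1 and Kcnc1 shared 21 of 27 bases, while those of Kcnj10 and Kcnma1 shared 13. In the longest coding sequence of each member, 55 of the 75 pore-family members held the pattern in frame, and 71 held it or the form with a GGN codon, a TTC or TTT codon and a GGN codon. All 8 members of the Kv10 to Kv12 family held only the second form, and 10 of 13 K2P members held the first form while 10 of 13 held the second. The count was 0 of 17 for the auxiliary members.

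Levels per length are given as TPM (counts per exon length, scaled to the same total in each library), which can be compared between genes. The members summed to 4667 TPM on average over the 9 libraries. The 5 highest held 42.7% of this sum and the 10 highest held 62.5%. Of the 92 members, 16 reached 100 TPM, 37 reached 10 TPM, 65 reached 1 TPM, and 7 stayed under 0.1 TPM. At the low end, 9 members had 0 counts in at least 1 library, and Kcne1, Kcng3 and Kcne3, named after their values were seen, had at most 3 counts in every library. Kcnj1 and Kcnk16, which the annotation lists, were not analysed here. By family, the Kir members summed to 726 ± 11.1 TPM in 15Q, 702 ± 11.6 TPM in 84Q and 726 ± 20.8 TPM in 84Q+IGF1 (SD, n = 3), and the K2P members to 545 ± 17.5, 583 ± 24.6 and 594 ± 37.3 TPM in the same order. The widest gap relative to the level was that of the Kv1 members, at 401 ± 41.7, 330 ± 31.2 and 358 ± 47.7 TPM. No test was made on these sums.

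**Figure D1:**
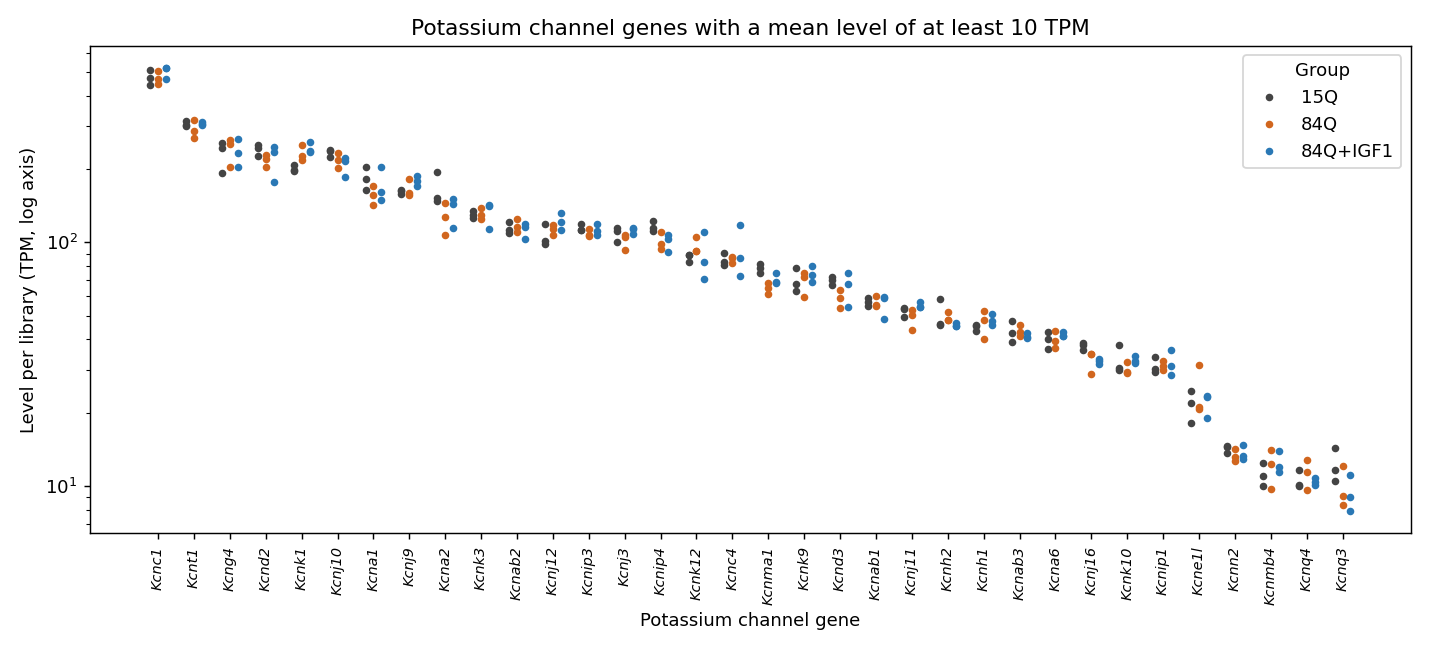
Level of 34 potassium channel genes with a mean of at least 10 TPM in each of the 9 libraries (vertical log axis, TPM; points are libraries, colours are the groups). Kcnc1 lies above the others shown, and for most genes the points of the 3 groups overlap.

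The Kv3 family, which carries the fast repolarizing current of rapidly firing neurons, held 28.3% of the Kcn sum. Kcnc1, which encodes Kv3.1 of granule cells, ranged from 443 to 520 TPM with overlapping groups. Kcnc4 had 72.2 to 82.5 CPM in the 15Q libraries and 76.2 to 81.4 CPM in the 84Q libraries. In the 84Q+IGF1 group its values were 68.8, 78.4 and 107 CPM, so that replicate 3 alone lay above every other library. Kcnc2, named here after its values were seen, had 6.39, 6.35 and 6.37 CPM in the 15Q libraries, 11.4, 6.32 and 5.92 CPM in the 84Q libraries and 1.37, 5.30 and 6.03 CPM in the 84Q+IGF1 libraries. The high and the low value of Kcnc2 came from the libraries with the highest and the lowest sum of oligodendrocyte markers (5093 CPM in 84Q replicate 1, 3099 CPM in 84Q+IGF1 replicate 1, and 3833 to 4424 CPM in the others), and the part of this in the result was not tested.

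The Kv1 family, the Shaker channels of axons and basket cell terminals, held 7.78% of the sum. Kcna1, mutated in an episodic ataxia of people, had a mean of 170 TPM over the libraries. Kcna2, its usual partner, had 436, 451 and 561 CPM in the 15Q libraries, 437, 384 and 328 CPM in the 84Q libraries, and 350, 446 and 419 CPM in the 84Q+IGF1 libraries. The 84Q and 15Q groups overlapped only in that 84Q replicate 1 reached just past the lowest 15Q library. Its log2 fold change for 84Q against 15Q was −0.33 ± 0.12 (SE), with a 95% interval from −0.61 to −0.06 (edgeR adjusted p = 0.176). Kcna3, better known from T lymphocytes and microglia, had 4.31, 4.71 and 4.73 CPM in the 15Q libraries, 2.45, 3.47 and 1.20 CPM in the 84Q libraries, and 1.80, 4.10 and 3.49 CPM in the 84Q+IGF1 libraries. All 6 libraries with the expanded repeat lay below all 3 control libraries. The log2 fold change was −0.93 ± 0.32 for 84Q (edgeR adjusted p = 0.155) and −0.54 ± 0.31 for 84Q+IGF1 (edgeR adjusted p = 0.386), and neither passed. Kcna6 stayed between 52.7 and 66.2 CPM.

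Kv2 channels and the silent subunits that join them held 6.07% of the sum. Kcng4, a silent subunit, was the most abundant of them at 235 TPM and ranged from 192 to 266 TPM with overlapping groups. Kcns2, another silent subunit, kept within 9.21 to 11.4 CPM.

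Kv4 channels carry the A-type current of dendrites and held 6.39% of the sum, nearly all in Kcnd2 of granule cells and Kcnd3. Kcnd3, mutated in an inherited ataxia of people, had 172, 160 and 164 CPM in the 15Q libraries, 144, 156 and 132 CPM in the 84Q libraries, and 134, 161 and 177 CPM in the 84Q+IGF1 libraries. The 84Q libraries lay below the 15Q libraries, but the 84Q+IGF1 libraries reached into the range of both (84Q against 15Q log2 fold change −0.20 ± 0.09, edgeR adjusted p = 0.261). Kcnd2 ranged from 177 to 250 TPM, with its lowest value in 84Q+IGF1 replicate 3.

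Kv7 channels carry the M-current that brakes repetitive firing, and held 1.96% of the sum. The EAG, ERG and ELK channels (Kv10 to Kv12) held 2.18%. Kcnh2, the ERG channel of the heart, and Kcnh1 ranged from 54.1 to 70.4 CPM and from 74.4 to 97.3 CPM, and their groups overlapped between 84Q and 15Q.

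Among the calcium- and sodium-activated channels (8.56% of the sum), Kcnt1, the sodium-activated channel Slack, was among the most abundant members at 302 TPM and ranged from 269 to 318 TPM. Kcnma1, the BK channel that shapes Purkinje cell spikes, had 317, 331 and 337 CPM in the 15Q libraries, 280, 294 and 268 CPM in the 84Q libraries, and 298, 316 and 288 CPM in the 84Q+IGF1 libraries. All 6 libraries with the expanded repeat lay below the lowest 15Q library, although 84Q+IGF1 replicate 2 came close to it. In the 84Q libraries the level was 0.856 times that in the 15Q libraries (95% interval 0.781 to 0.937), a log2 fold change of −0.22 ± 0.06 that passed the p threshold but not the fold threshold (edgeR adjusted p = 0.0833). In the 84Q+IGF1 libraries the log2 fold change was −0.13 ± 0.06 (edgeR adjusted p = 0.3). The 84Q difference missed the p threshold without 15Q replicate 2 (edgeR adjusted p = 0.261), 15Q replicate 3 (0.287), 84Q replicate 1 (0.119) or 84Q replicate 3 (0.258), and with Xist (0.153) or choroid plexus markers (0.12) as a covariate or the replicate number as a block (0.15). Kcnn2, the SK2 channel of Purkinje cells, kept within 23.8 to 27.3 CPM in all 9 libraries.

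The inward rectifiers held 15.4% of the sum. Kcnj10 (Kir4.1) and Kcnj16 (Kir5.1), which pair in astrocytes and Bergmann glia, had means of 220 and 34.3 TPM. Kcnj10 had 294 to 321 CPM in the 15Q libraries, 281 to 318 CPM in the 84Q libraries and 259 to 296 CPM in the 84Q+IGF1 libraries. Kcnj16 had 34.7 to 37.7 CPM, 28.8 to 35.4 CPM and 31.4 to 32.4 CPM in the same order (84Q+IGF1 against 15Q log2 fold change −0.19 ± 0.08, edgeR adjusted p = 0.264). The summed astrocyte and Bergmann glia markers ran from 3250 to 3784 CPM over the libraries. The median log2 fold change of the 9 astrocyte and Bergmann glia markers was −0.08 for 84Q and −0.25 for 84Q+IGF1 against 15Q, with 0 of them called, and their part in the values of Kcnj10 and Kcnj16 was not tested. Kcnj3, Kcnj9 and Kcnj6, which form the G protein-gated channels of neurons, had means of 107, 168 and 6.80 TPM. Kcnj9 had 165 to 174 CPM in 15Q and 181 to 198 CPM in 84Q+IGF1, without overlap (log2 fold change 0.17 ± 0.07, edgeR adjusted p = 0.224). Kcnj11 and Kcnj8, the pores of ATP-sensitive channels in neurons and in vessel wall cells, had means of 52.1 and 6.73 TPM. Kcnj2 ranged from 2.86 to 5.03 CPM, with its highest value in 84Q replicate 1.

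The K2P leak channels held 12.3% of the sum, led by Kcnk1 (226 TPM), Kcnk3 (131 TPM) and Kcnk12 (90.5 TPM). Kcnk1, also called TWIK-1, had 116, 109 and 108 CPM in the 15Q libraries, 123, 129 and 145 CPM in the 84Q libraries, and 135, 144 and 130 CPM in the 84Q+IGF1 libraries. All 6 libraries with the expanded repeat lay above all 3 control libraries. Its level was 1.19 times higher in 84Q (95% interval 1.08 to 1.32, edgeR adjusted p = 0.0794) and 1.23 times higher in 84Q+IGF1 (95% interval 1.11 to 1.36, edgeR adjusted p = 0.0463), which passed the p threshold but not the fold threshold. Between 84Q+IGF1 and 84Q its log2 fold change was 0.04 ± 0.07, with a 95% interval from −0.10 to 0.19. The p threshold was missed without 15Q replicate 2 (edgeR adjusted p = 0.24 for 84Q and 0.162 for 84Q+IGF1), 15Q replicate 3 (0.265 and 0.186), 84Q replicate 3 (0.231 for 84Q), 84Q+IGF1 replicate 1 (0.102 for 84Q+IGF1) or 84Q+IGF1 replicate 2 (0.113 for 84Q+IGF1), while the direction held in every setting tried. The p threshold was also missed with choroid plexus markers as a covariate (edgeR adjusted p = 0.114 and 0.229), with the replicate number as a block (0.168 and 0.123) and, for 84Q, with Xist as a covariate (0.159). Kcnk9 (TASK-3), Kcnk3 (TASK-1) and Kcnk10 (TREK-2) had overlapping groups in every comparison with 15Q. Kcnk13 (THIK-1), a channel of microglia, had 5.01, 5.43 and 5.23 CPM in the 15Q libraries, 5.69, 4.83 and 5.07 CPM in the 84Q libraries, and 3.60, 4.21 and 4.21 CPM in the 84Q+IGF1 libraries. The 84Q+IGF1 libraries were the lowest of all, at log2 −0.37 ± 0.13 against 84Q (edgeR adjusted p = 0.969) and −0.38 ± 0.13 against 15Q (edgeR adjusted p = 0.159). Summed microglia markers were 164 to 201 CPM in 15Q, 201 to 246 CPM in 84Q and 177 to 192 CPM in 84Q+IGF1. The median log2 fold change of the 9 microglia markers was −0.20 for 84Q+IGF1 against 84Q and 0.04 against 15Q, with 0 called. Their part in the values of Kcnk13 was not tested.

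**Figure D2:**
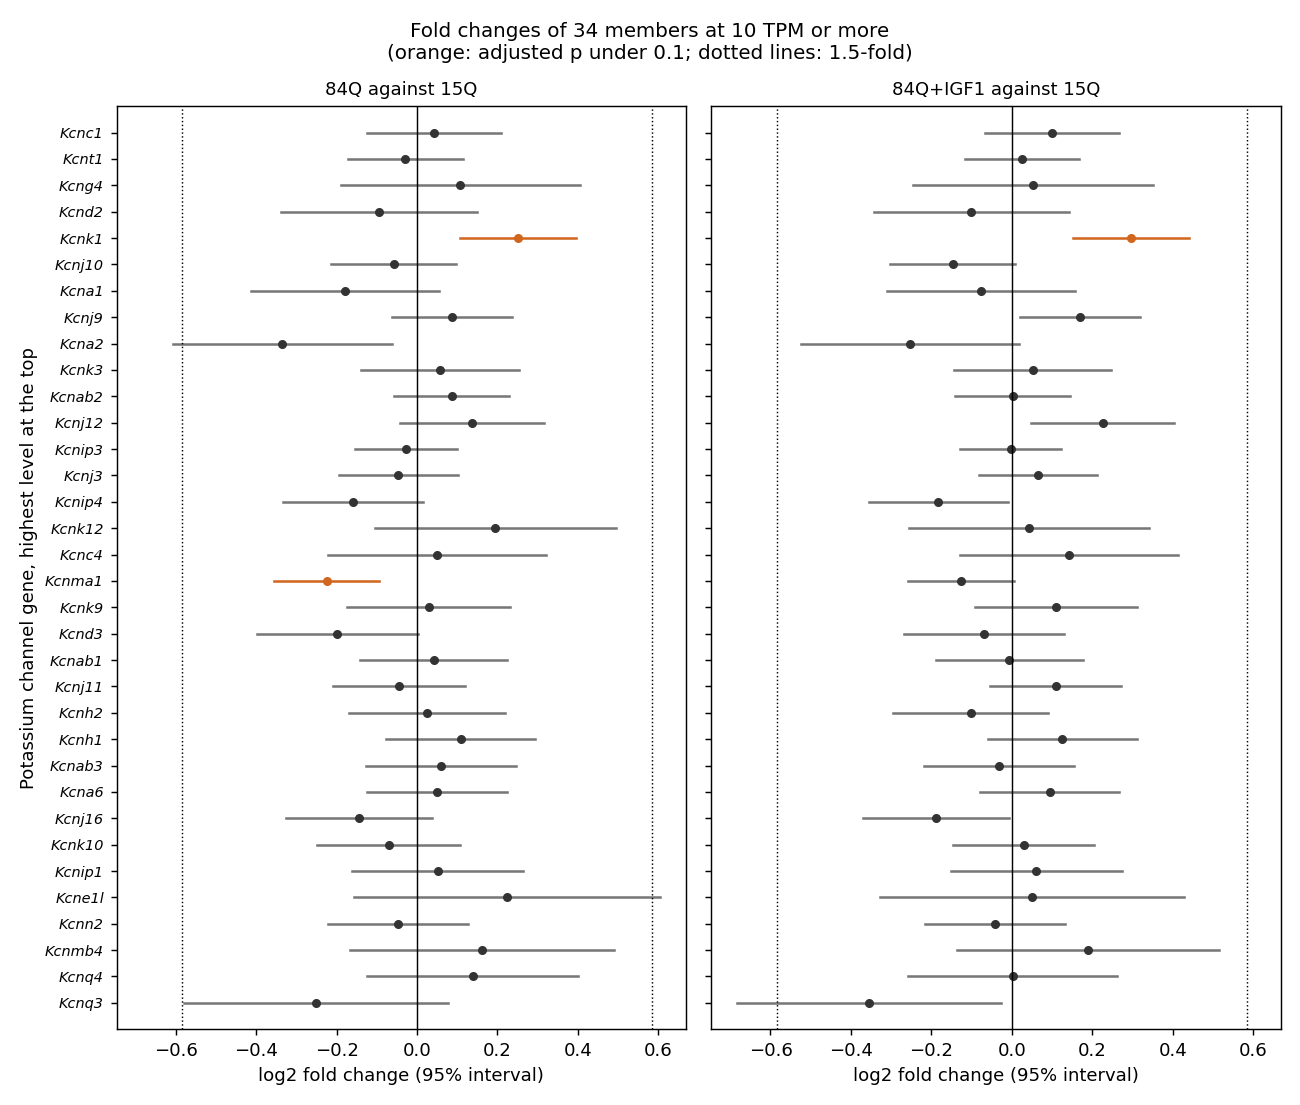
Log2 fold change against 15Q (horizontal axis, points) with its 95% interval (lines) for 34 members at 10 TPM or more, in 84Q (left) and 84Q+IGF1 (right). Orange marks adjusted p under 0.1 (Kcnk1 in both panels, Kcnma1 in the left) and dotted lines mark a 1.5-fold difference, which the intervals of Kcna2 and Kcne1l (left) and of Kcnq3 (right) cross.

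Auxiliary subunits held 11.1% of the sum. The most abundant were Kcnab2 (115 TPM), the beta subunit of Kv1 channels, Kcnip3 (112 TPM) and Kcnip4 (106 TPM), calcium sensors that bind Kv4 channels. Kcnab2 ranged from 148 to 177 CPM and Kcnip3 from 93.6 to 105 CPM, with overlapping groups. Kcnip4 had 100 to 108 CPM in 15Q, 86.9 to 103 CPM in 84Q and 81.6 to 99.9 CPM in 84Q+IGF1 (84Q+IGF1 against 15Q log2 fold change −0.18 ± 0.08, edgeR adjusted p = 0.252). Kcnmb4, the neuronal beta subunit of BK channels, ranged from 9.75 to 14.1 TPM with overlapping groups.

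Whether the expanded repeat changes the channel genes was asked by comparing 84Q with 15Q. Calls required a fold of 1.5 or more and an adjusted p under 0.1, the thresholds in the methods of the study. By this rule 0 of 78 members were called in the edgeR quasi-likelihood test, where 2.14% of all tested genes were called (1.90% lower and 0.238% higher). At an unadjusted p under 0.05, 6 members passed, against 19.4% of all genes, and DESeq2 called 1 member, Kcna3, where it called 2.18% of all genes. With no fold threshold 2 members passed, Kcnk1 higher and Kcnma1 lower, where 4.80% of all genes passed (1.54% higher and 3.25% lower). The libraries of the groups did not overlap for 14 members, 12 lower and 2 higher in 84Q, where 25.4% of all genes did not overlap (13.5% lower and 11.9% higher). The median log2 fold change was −0.05 over the members and 0.00 over all genes, and 46 members lay below 0, where 50.3% of all genes did.

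The 84Q+IGF1 mice were set against the same 15Q libraries, so the values of these comparisons are not independent. Here 2 of 78 members were called, both lower, Kcnq1 and Kcnk5, where 2.25% of all genes were called (2.06% lower and 0.186% higher). With no fold threshold Kcnk1 was added, and 3.67% of all genes passed (2.63% lower and 1.04% higher). At an unadjusted p under 0.05, 14 members passed, against 17.7% of all genes. The groups did not overlap for 15 members, 11 lower and 4 higher, where 24.7% of all genes did not overlap (12.9% lower and 11.8% higher). The median log2 fold change was −0.08 over the members and −0.01 over all genes, and 50 members lay below 0, where 51.1% of all genes did.

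The effect of the treatment was asked by comparing 84Q+IGF1 with 84Q. No member was called (0 of 78), as with all tested genes (0%) in the edgeR test and for the members in DESeq2, which called 0.0159% of all genes. At an unadjusted p under 0.05, 5 members passed (Kcnc2, Kcnf1, Kcnj13, Kcnk13 and Kcnk5, all at a lower level in 84Q+IGF1; Kcnf1 is named after its value was seen), against 4.68% of all genes. The groups did not overlap for 8 members, 6 lower and 2 higher, where 8.48% of all genes did not overlap (4.50% lower and 3.98% higher). The median log2 fold change of the members was 0.01.

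When all 6 libraries with the expanded repeat were set against 15Q, 1 member was called, Kcnq1, which was lower, where 3.47% of all genes were called (3.16% lower and 0.315% higher). With no fold threshold 4 members passed, where 10% of all genes did (6.01% lower and 4.04% higher). Among these were Kcnk1 (log2 fold change 0.27 ± 0.06, edgeR adjusted p = 0.0198), Kcnq1 (−1.34 ± 0.39, edgeR adjusted p = 0.069) and Kcnma1 (−0.17 ± 0.06, edgeR adjusted p = 0.0862). For Kcnma1, the edgeR adjusted p was 0.132 with the replicate number as a block, 0.198 with Xist and 0.159 with choroid plexus markers as a covariate, and of the fits without 1 library it passed only without 84Q+IGF1 replicate 2 (edgeR adjusted p = 0.0537, against 0.105 to 0.334 without any other). Kcnk1 missed the threshold without 15Q replicate 2 (edgeR adjusted p = 0.1) or 15Q replicate 3 (0.117). The groups did not overlap for Kcna3 and Kcnma1, which were lower, and Kcnk1, which was higher, where 12.3% of all genes did not overlap (6.34% lower and 5.96% higher). The call of Kcnq1 was lost without 15Q replicate 2 (edgeR adjusted p = 0.255), 15Q replicate 3 (0.299) or 84Q+IGF1 replicate 3 (0.101), and with the replicate number as a block (0.131), choroid plexus markers as a covariate (0.121) or Xist as a covariate (0.215). Its log2 fold change was −1.25 with the block, −1.40 with choroid plexus markers and −0.96 with Xist. The median log2 fold change of the members was −0.06.

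**Figure D3:**
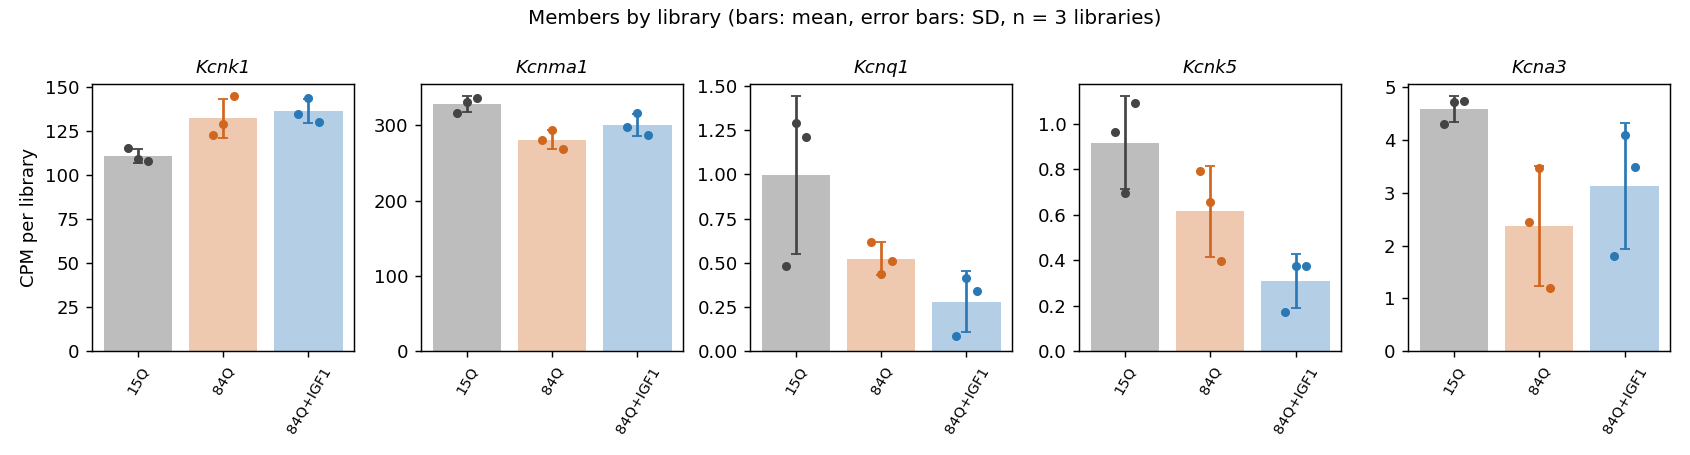
CPM of Kcnk1, Kcnma1, Kcnq1, Kcnk5 and Kcna3 in each library (points), with the mean (bars from 0) and SD (error bars) of the 3 libraries per group. Kcnk1 is higher and Kcnma1 and Kcna3 are lower in all 6 libraries with the expanded repeat, while Kcnq1 and Kcnk5 lie near 1 CPM or below.

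How small a difference the libraries could still hold was read from the 95% intervals. For 84Q against 15Q the interval lay inside 1.5-fold in both directions for 46 of 78 members (63.3% of all genes), and for 84Q+IGF1 against 15Q for 48 (63.9%). For 84Q+IGF1 against 84Q it did for 51 members (66.2%), and for all 84Q libraries against 15Q for 53 (68.0%). Among the 37 members at 10 TPM or more the number inside was 35, 36, 37 and 37 in these comparisons, where 89.8%, 91.3%, 93.4% and 93.0% of all genes at that level were inside. The highest level of such a member was 1.13 to 1.81 times its lowest over the 9 libraries. Those not inside were Kcna2 and Kcne1l for 84Q and Kcnq3 for 84Q+IGF1 against 15Q, of which Kcne1l and Kcnq3 are named after their values were seen. At lower levels the intervals of most members reached past 1.5-fold.

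**Figure D4:**
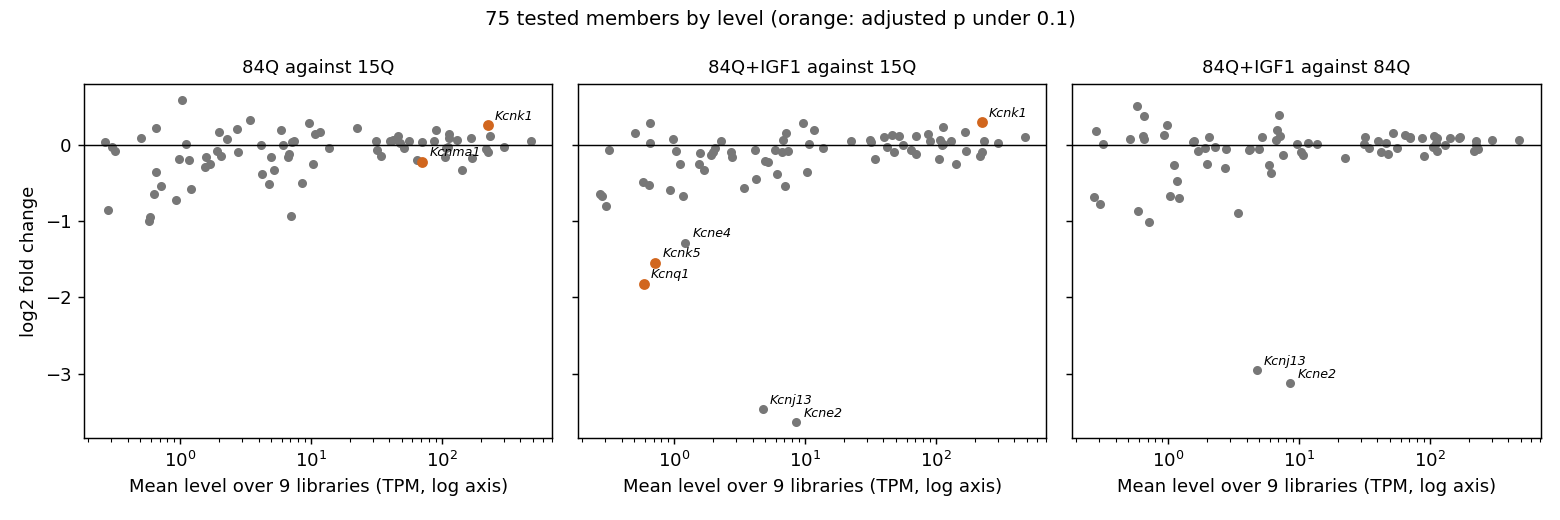
Log2 fold change (vertical axis) of 75 tested members against their mean level over the 9 libraries (horizontal log axis, TPM) in the 3 pairwise comparisons. Members at 10 TPM or more stay close to 0, and in 84Q+IGF1 against 15Q the lowest values are those of Kcnq1, Kcnk5 and Kcne4 near 1 TPM and of Kcnj13 and Kcne2, which had few counts in 6 libraries. In 84Q against 15Q other members lie lowest, among them Kcna3 at −0.93 beside Kcnq1 at −0.95.

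The called members were channels of epithelia and present at trace level. Kcnq1, the pore of the slow cardiac potassium current that also serves many epithelia, had 0.483, 1.29 and 1.21 CPM in the 15Q libraries, 0.620, 0.439 and 0.513 CPM in the 84Q libraries, and 0.0857, 0.414 and 0.342 CPM in the 84Q+IGF1 libraries. These values came from 2 to 71 counts per library, and 15Q replicate 1 lay within the range of the 84Q libraries. The level in 84Q+IGF1 was 0.283 times that in 15Q (95% interval 0.139 to 0.579), a log2 fold change of −1.82 ± 0.47 (edgeR adjusted p = 0.0779). Kcnk5, the acid-sensitive TASK-2 of kidney and other epithelia, had 0.965, 0.694 and 1.09 CPM in the 15Q libraries, 0.793, 0.659 and 0.399 CPM in the 84Q libraries, and 0.171, 0.376 and 0.377 CPM in the 84Q+IGF1 libraries. The 84Q+IGF1 libraries lay below all others. The level in 84Q+IGF1 was 0.343 times that in 15Q (95% interval 0.196 to 0.600), a log2 fold change of −1.54 ± 0.37 (edgeR adjusted p = 0.0581). The call of Kcnq1 was lost without 15Q replicate 2 (edgeR adjusted p = 0.227), 15Q replicate 3 (0.276), 84Q+IGF1 replicate 1 (0.212) or 84Q+IGF1 replicate 3 (0.119), and that of Kcnk5 without 15Q replicate 3 (0.25) or 84Q+IGF1 replicate 1 (0.185). With the log2 level of Xist as a covariate for sex, the edgeR adjusted p was 0.153 for Kcnq1 and 0.126 for Kcnk5. Both calls were also lost with the replicate number as a block (edgeR adjusted p = 0.123 for Kcnq1 and 0.142 for Kcnk5) and with choroid plexus markers as a covariate (0.161 and 0.324). The log2 fold change of Kcnq1 was −1.80 with the block, −2.06 with choroid plexus markers and −1.44 with Xist. That of Kcnk5 was −1.54, −1.28 and −1.44 in the same order. Kcne4, an auxiliary subunit that inhibits Kv channels, had 0.854, 1.44 and 1.23 CPM in the 15Q libraries, 1.03, 0.571 and 0.740 CPM in the 84Q libraries, and 0.300, 0.376 and 0.753 CPM in the 84Q+IGF1 libraries, and did not pass (84Q+IGF1 against 15Q log2 fold change −1.28 ± 0.36, edgeR adjusted p = 0.106). Of 19 alternative settings, 6 called Kcne4 in this comparison.

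Several markers of other organs were also lower than in 15Q. All 5 tested intestine markers of the list of 10 were called lower against 15Q in 84Q and in 84Q+IGF1. Markers nearly absent outside 15Q can pass the count filter only through the 15Q libraries. The filter thus largely fixed the direction of this count, which is only a description of the libraries. The same can hold for the other organ lists. Summed kidney markers were 13.8 to 20.5 CPM in 15Q and 5.96 to 9.34 CPM in the other libraries, and 2 of the 4 tested markers of the list of 8 were called lower. Summed epidermis markers were 20.6 to 33.6 CPM in 15Q and 9.51 to 13.1 CPM elsewhere, and 3 of 6 tested markers in 84Q and 5 of 6 in 84Q+IGF1 were called lower. Liver (3 of 6 tested) and skeletal muscle (6 of 8 tested) markers were called lower in both comparisons as well. The liver list holds Ttr, also a choroid plexus marker, and the muscle list holds Pvalb, also an interneuron marker. With Ttr, mean liver sums were 242, 282 and 8.23 CPM in 15Q, 84Q and 84Q+IGF1, and without it 9.37, 1.47 and 0.592 CPM. With Pvalb, mean muscle sums were 200, 220 and 228 CPM in the same order, and without it 18.9, 4.07 and 4.31 CPM. Between 84Q+IGF1 and 84Q, the median log2 fold change was −0.82 for the tested liver markers, −0.32 for epidermis, −0.07 for skeletal muscle, −0.06 for kidney and 0.08 for intestine. Ttr and Pvalb were included here, and 0 markers of these lists were called by edgeR. In the same comparison the log2 fold change was −1.01 ± 0.41 for Kcnk5 (edgeR adjusted p = 0.969) and −0.87 ± 0.54 for Kcnq1 (edgeR adjusted p = 0.969). Of the intestine markers, Fabp2 was at 0 in all 6 libraries with the expanded repeat and at 0.297 to 1.09 CPM in 15Q. Their part in the values of Kcnq1, Kcnk5 and Kcne4 was not tested, and in bulk tissue fewer cells of a type and less RNA per cell cannot be told apart. The antisense RNA Kcnq1ot1 lies on the opposite strand of Kcnq1, with 121 exon bases in common, 2.96% of those of Kcnq1. It had 55.1, 57.1 and 62.4 CPM in 15Q, 46.8, 46.7 and 37.9 CPM in 84Q and 43.0, 47.9 and 44.9 CPM in 84Q+IGF1. Its log2 fold change against 15Q was −0.41 for 84Q (edgeR adjusted p = 0.0373) and −0.36 for 84Q+IGF1 (edgeR adjusted p = 0.0553), past the p threshold but not the fold threshold, and −0.39 for all 84Q libraries (edgeR adjusted p = 0.00893). As the strand setting of the counting is not stated, reads in the shared bases cannot be assigned to either gene. The same holds for Kcnj13 with Gigyf2 (623 shared bases, 49.1% of its exon bases), Kcnj3 with Gm26794 (31.1%), Kcna6 with Gm26673 (39.6%) and Kcnk1 with Gm45875 (8.01%).

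Kcnj13 and Kcne2 were high in the 3 libraries with high choroid plexus markers, which fall in 2 of the 3 groups. Kcnj13 encodes Kir7.1 of the choroid plexus epithelium, and Kcne2 encodes a small subunit that works with Kcnq1 at the same membrane. Because both moved together over the libraries, their promoters are shown, taken from RefSeq (GRCm38.p6). Each holds 250 bases before and 50 after the start of transcription, and capitals mark matches to TATAAA and CCAAT on either strand, which do not overlap here.
Kcnj13: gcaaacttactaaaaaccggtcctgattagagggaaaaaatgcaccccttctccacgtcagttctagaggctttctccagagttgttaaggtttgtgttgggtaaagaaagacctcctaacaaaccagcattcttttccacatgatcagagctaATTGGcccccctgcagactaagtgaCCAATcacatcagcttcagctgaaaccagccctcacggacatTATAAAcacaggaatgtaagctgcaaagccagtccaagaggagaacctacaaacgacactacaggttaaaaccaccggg
Kcne2: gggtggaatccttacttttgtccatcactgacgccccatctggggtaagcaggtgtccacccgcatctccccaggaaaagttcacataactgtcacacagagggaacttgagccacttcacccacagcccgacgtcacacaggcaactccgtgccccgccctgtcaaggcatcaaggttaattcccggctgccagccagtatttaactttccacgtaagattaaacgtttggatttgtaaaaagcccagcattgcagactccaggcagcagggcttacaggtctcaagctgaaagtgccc
The promoter of Kcnj13 lies at chr1:87394680-87394979 (minus strand) and that of Kcne2 at chr16:92292139-92292438 (plus strand). The Kcnj13 promoter held TATAAA at position −29 from the start and CCAAT at −96 (opposite strand) and −71, while the Kcne2 promoter held neither. TATAAA was found in 13.6% and CCAAT in 37.4% of all 32851 promoters of this length, and in 3 and 19 of the 67 Kcn promoters, 1 for each member with a match in the table. TAATCC, the core of the motif of Otx factors, was in 7.06% of all promoters, in 3 Kcn promoters and in neither of those shown. Their GC content was 46.0% and 53.0%, against a median of 60.3% over the 67 Kcn promoters and 52.7% over all promoters.

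Kcnj13 had 3.45, 0.570 and 3.60 CPM in the 15Q libraries, 0.345, 4.79 and 0.171 CPM in the 84Q libraries, and 0.0857, 0.376 and 0.205 CPM in the 84Q+IGF1 libraries. Kcne2 had 8.58, 0.298 and 10.3 CPM, then 0.276, 13.1 and 0.0570 CPM, then 0.257, 0.414 and 0.822 CPM in the same order. The 3 libraries with high values are those with high choroid plexus markers, among them 2 of the controls, 1 of 84Q and 0 of 84Q+IGF1. The log2 fold change for 84Q+IGF1 against 15Q was −3.46 ± 1.14 for Kcnj13 (edgeR adjusted p = 0.149) and −3.63 ± 1.47 for Kcne2 (edgeR adjusted p = 0.225). Each was called in this comparison in 3 of 19 alternative settings. Leaving out these 3 libraries, a choice made after seeing the data, leaves 1 control library, 15Q replicate 2, which the fit assumes to vary like the other groups. The log2 fold change was then −1.31 for Kcnj13 (edgeR adjusted p = 0.726) and 0.77 for Kcne2 (edgeR adjusted p = 0.867), against a single control value of 0.298 CPM for Kcne2. In the same fit, Kcnk1 had a log2 fold change of 0.30 for 84Q and 0.33 for 84Q+IGF1 against that library (edgeR adjusted p = 0.486 and 0.432).

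**Figure D5:**
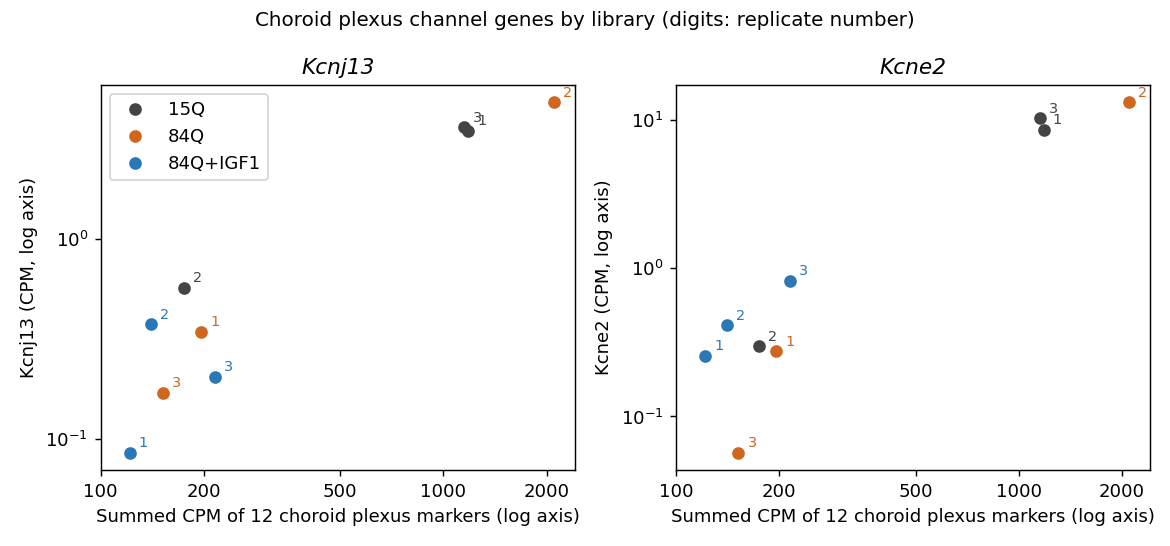
Kcnj13 and Kcne2 (vertical log axes, CPM) against the summed CPM of 12 choroid plexus markers (horizontal log axis) in each of the 9 libraries, coloured by group and numbered by replicate. 15Q replicates 1 and 3 and 84Q replicate 2 lie apart at the upper right, and the other 6 libraries lie at 122 to 215 CPM of the markers.

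Genes whose products work with the channels were read from a list of 24, of which 23 were tested. In every comparison 0 were called. The most abundant were Cntn2 (295 TPM), an adhesion molecule that clusters Kv1 channels beside the node of Ranvier, and Hcn2 (209 TPM), a hyperpolarization-activated channel. Cntn2 ranged from 652 to 760 CPM with overlapping groups. Hcn2 had 179, 147 and 125 CPM in 15Q, 184, 190 and 196 CPM in 84Q, and 153, 184 and 154 CPM in 84Q+IGF1. The 84Q libraries lay above the 15Q libraries, at a log2 fold change of 0.33 ± 0.11 (edgeR adjusted p = 0.143).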

How the data were processed

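RNA was made into strand-specific libraries (Agilent SureSelect) and sequenced as paired 150 bp reads. The authors demultiplexed with bcl2fastq 2.20, trimmed with Trimmomatic 0.36, aligned with HISAT2 2.2.0 to GRCm38.p6 and counted with featureCounts. The version, annotation and strand setting of the counting are not given in the sources used here. The authors deposited raw counts per gene, which were used as deposited.

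Counts were tested with edgeR 4.0.16 in R 4.3.3 (TMM, filterByExpr, quasi-likelihood F test, Benjamini-Hochberg over the 19353 genes tested), in 1 fit of 3 groups, or of 2 groups for all 84Q libraries against 15Q. Calls required a fold of 1.5 or more with an adjusted p under 0.1. Standard errors were taken from the log2 fold change and its F, and 95% intervals from the t distribution. CPM used TMM-scaled totals. TPM used summed exon lengths of GENCODE M21, which placed 37681 of 37816 genes. A floor of 3 counts came to 0.0512 to 0.171 CPM per library, covering counting error only. On simulated data for 84Q against 15Q (19050 genes) 31.3% of 1.5-fold, 78.8% of 2-fold and 97.0% of 4-fold changes were called, and 95.6% of intervals held the true value.

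Named members were those called or with an adjusted p under 0.1, the 2 highest of each family, the 3 with the smallest p among non-overlapping members in each comparison and direction, and a fixed list. The values of 3 members are not reported here, though the counts include them. The members and lists were chosen with earlier results of these data known. Alternatives were DESeq2 1.42.0, its size factors, no filter on low counts, other thresholds, only the groups compared, covariates for sex and choroid plexus, the replicate number as a block, and leaving out libraries. Same-numbered libraries of different groups did not deviate together (r from −0.368 to 0.110 over 9 pairs). Differently numbered ones had r from −0.281 to 0.320 over 18 pairs. The numbers were therefore treated as names.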

Additional observations from a re-analysis of the deposited data

Results flagged for a closer look

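Among the 42 named members, the 6 libraries of both 84Q groups were searched for a single library far from the rest, and 4 were found. The cutoff is meant to flag about 1 of 20 genes by chance when values are normally distributed. This rate was not checked on these data. Kcne2 had 13.1 CPM in 84Q replicate 2 and 0.0570 to 0.822 CPM in the other 5 libraries. Kcnj13 had 4.79 CPM in the same library and 0.0857 to 0.376 CPM in the others. Summed choroid plexus markers were 2102 CPM in that library and 122 to 215 CPM in the other 5. Kcnc4 had 107 CPM in 84Q+IGF1 replicate 3 and 68.8 to 81.4 CPM in the others. Kcnj2 had 5.03 CPM in 84Q replicate 1 and 3.25 to 3.82 CPM in the others.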

How the results depend on the processing

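The number of members called was small in every setting and moved with several of them. The share of all tested genes called in the same setting is given in brackets. For 84Q against 15Q (0 called) it was 1 with DESeq2 (2.18%), 3 with no filter on low counts (2.71%), 1 with choroid plexus markers as a covariate (1.85%), 2 with no fold threshold (4.80%), and 0 to 4 when each library was left out (0.932% to 2.76%), with 4 without 84Q replicate 2 (2.22%) and 1 without 84Q+IGF1 replicate 1 (2.76%). The 4 without 84Q replicate 2 were Kcne2, Kcnj13, Kcna3 and Kcnv2, the last named after its value was seen. The 1 with choroid plexus markers was Kcne2. For 84Q+IGF1 against 15Q (2 called) it was 5 with no filter (3.40%), 4 with only the groups compared (3.06%), 0 with the replicate number as a block (271 of 19353 genes), 0 with Xist (1.67%) or choroid plexus markers (1.33%) as a covariate, 0 without the 3 choroid plexus libraries (0.925%, chosen after seeing the data, and leaving 1 control library, whose spread is taken from the other groups), 0 at an adjusted p under 0.05 (1.45%), and 0 to 5 when each library was left out (1.15% to 3.16%), with 0 without 15Q replicate 3 (1.15%) or 84Q+IGF1 replicate 1 (1.51%), 1 without 15Q replicate 2 (1.24%) and 5 without 84Q replicate 2 (2.98%). For 84Q+IGF1 against 84Q (0 called) it was 3 with no filter (0.444%) and 0 in every fit without 1 library (0% to 0.0452%), while the median log2 fold change of the members ran from −0.0446 to 0.0516. For all 84Q libraries against 15Q (1 called) it was 3 with DESeq2 (3.34%), 5 with no filter (3.27%), 4 with no fold threshold (10%), 0 with the replicate block (2.52%), Xist (2.08%), choroid plexus markers (2.37%), without the choroid plexus libraries (1.34%) or at an adjusted p under 0.05 (2.30%), and 0 to 4 when each library was left out (1.41% to 4.24%; 2 without 15Q replicate 1, 3 without 84Q replicate 1 or 84Q+IGF1 replicate 2, 4 without 84Q replicate 2, 0 without 15Q replicates 2 or 3 or 84Q+IGF1 replicate 3), with medians from −0.107 to −0.0422. The causes were not tested. Of 3149 values of named members under these settings, 2996 had the direction of the main value, 3087 stayed on the same side of the threshold, 24 lost it and 38 gained it. The 24 losses were of Kcnk5 (7 of 19) and Kcnq1 (9 of 19) for 84Q+IGF1, and of Kcnq1 (8 of 18) for all 84Q libraries. No other value was called in the main fit, so none could be lost. Settings that change only a threshold repeat the main value, so their direction could not differ. Replicate numbers were treated as names. For replicates 1 and 3, the sample names of 84Q and 84Q+IGF1 begin alike, and the labels do not say why. At low counts, as for Kcnq1 and Kcnk5, depth limits what can be seen.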
